A study of Vitis rotundifolia with 12 samples.

Results

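In the pedicel of the strongly attached muscadine genotype, 128 of the 26394 gene models in the files were high at the pea-size stage and came down at maturity to the level that the weakly attached genotype had at both stages. At the pea-size stage the median of these gene models was 15.8 CPM in the strong genotype and 1.77 CPM in the weak genotype. At maturity the medians were 1.68 CPM in the strong genotype and 1.71 CPM in the weak genotype. The gene models were chosen from these levels themselves, so the pattern is their definition and not a finding. CPM is the read count of a gene model for each 1000000 gene counts of its library. A gene model was taken where, in the strong genotype, all 3 maturity libraries lay below all 3 pea-size libraries, the maturity to pea-size ratio of mean CPM was at most 0.25 and the pea-size mean was at least 5 CPM. In the weak genotype the same ratio had to lie between 2/3 and 1.5, and at maturity so did the ratio of the strong to the weak genotype. A value of 0.5 CPM was added to both means of every ratio.

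The RNA came from flash-frozen pedicels of Ga. 12-3-22, called W here, whose fruit attach weakly, and of Ga. 6-1-269, called S, whose fruit attach strongly, harvested pea-size or at maturity. Each of the 4 groups held 3 biological replicates, so a genotype difference rests on 1 weak and 1 strong genotype. The whole pedicel was used, and in such bulk tissue fewer cells of a type and less RNA per cell cannot be told apart. The plants were grown at 1 research site in Florida, and a further label that reads mature for the tissue of all 12 libraries, those of the pea-size stage included, was not used.

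The pedicel is the stalk that carries the berry, and the abscission zone is the layer of small cells where the berry comes away from it. Separation is known to involve a fall in auxin flow from the fruit, ethylene signalling and enzymes that loosen the cell wall and dissolve the middle lamella. The gene models carry positional identifiers, and 0 of them occur in the reference table of grape gene names used here, so no function is given for any of them and no pathway list was read. A chromosome and a rank by S pea-size mean CPM, from 1 for the highest to 128 for the lowest, stand in for a name, except for a pair of gene models named by a rule.

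Gene counts per library ran from 4705119 to 21971736 with a median of 11427219, and they were lowest in W maturity replicate 1. The S maturity replicates stood apart from each other. In S maturity replicate 1, 30.4% of the entries were reads on no gene model and the largest gene model took 12.3% of the gene counts, against 21.8% and 6.94% in replicate 2, and across gene models its Spearman correlation with the other S maturity libraries was 0.836 and 0.817, where that between those libraries was 0.967. In the 10 remaining libraries the share on no gene model lay between 10.6% and 17.6%. Some results that rest on S maturity replicate 1 are given with and without it and others only with it, and its part in them was otherwise not tested.

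The members' levels in each library fell into 1 high group and 3 low groups. Summed over the 128 gene models, the S pea-size libraries held 8425, 7237 and 7311 CPM. The S maturity libraries held 1195, 789.4 and 961.3 CPM. The W pea-size libraries held 1469, 1325 and 1175 CPM, and the W maturity libraries 939.0, 1265 and 1270 CPM. The lowest S pea-size sum was therefore far above the highest sum of the 9 other libraries, and the ranges of the 3 low groups overlapped.

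**Figure D1:**
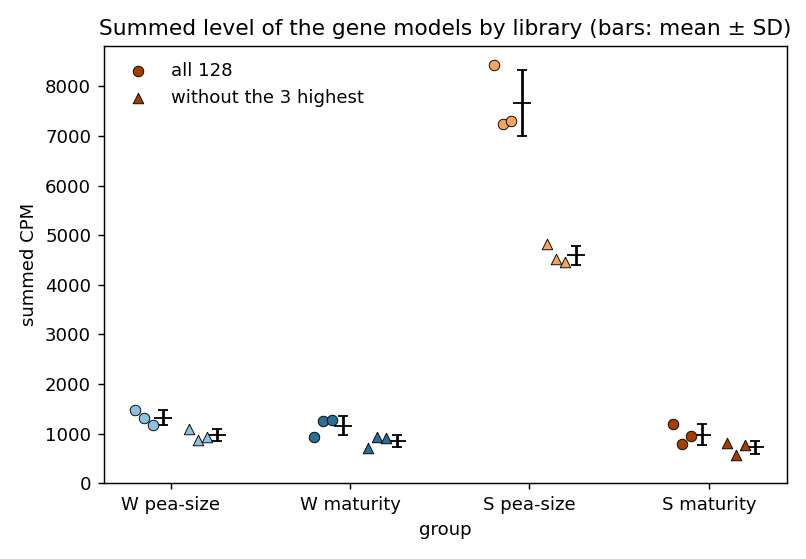
Summed CPM of the 128 gene models in each library, by group, on a linear axis. Circles are libraries with all 128 gene models, triangles the same libraries without the 3 highest gene models, and bars the mean ± SD of 3 libraries: S pea-size reached 7658 ± 665 CPM against 1323 ± 147 in W pea-size, 1158 ± 190 in W maturity and 981.8 ± 203 in S maturity.

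The mean sum was 7658 ± 665 CPM in S pea-size (SD, n = 3) and 981.8 ± 203 CPM in S maturity (SD, n = 3), a ratio of 7.80. At the pea-size stage S stood 5.79-fold above W. Within W the ratio of maturity to pea-size was 0.875, and at maturity the ratio of S to W was 0.848, or 0.756 without S maturity replicate 1. The 3 gene models with the highest S pea-size level made up 40.0% of the S pea-size sum and 26.5% to 26.8% of the sum in the other groups. Without them the S pea-size mean was 4597 ± 189 CPM against 722 ± 125 CPM in S maturity (SD, n = 3 each).

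Most of the members were expressed at low levels outside S pea-size. In S pea-size their mean CPM ran from 5.02 to 1401. With 0.5 CPM added to both means, the median fold of pea-size over maturity in S was 7.18. With nothing added, the pooled counts gave folds from 3.82 to 93.5 in the 114 members with more than 3 counts at S maturity. The 8 members at 0 there had lower bounds of 96.9-fold to 326-fold, and the median over all 128 with these at their bounds was 8.81. In 92 of them the means of the 3 other groups all lay below 5 CPM, in 34 all below 0.5 CPM, and in 27 all at 5 CPM or more. The 34 lowest had a median fold of 12.6 with 0.5 CPM added and of 68.0 with nothing added and the 8 at their bounds, and the 27 highest had medians of 5.62 and 6.37. By S pea-size level, 24 had 50 CPM or more, 62 had 10 to 50 CPM and 42 had 5 to 10 CPM. For the low members the added 0.5 CPM is a large part of each ratio: with no CPM added, 63 of the 128 met both windows of 2/3 to 1.5, and 20 had a W group at 0 and no ratio.

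**Figure D2:**
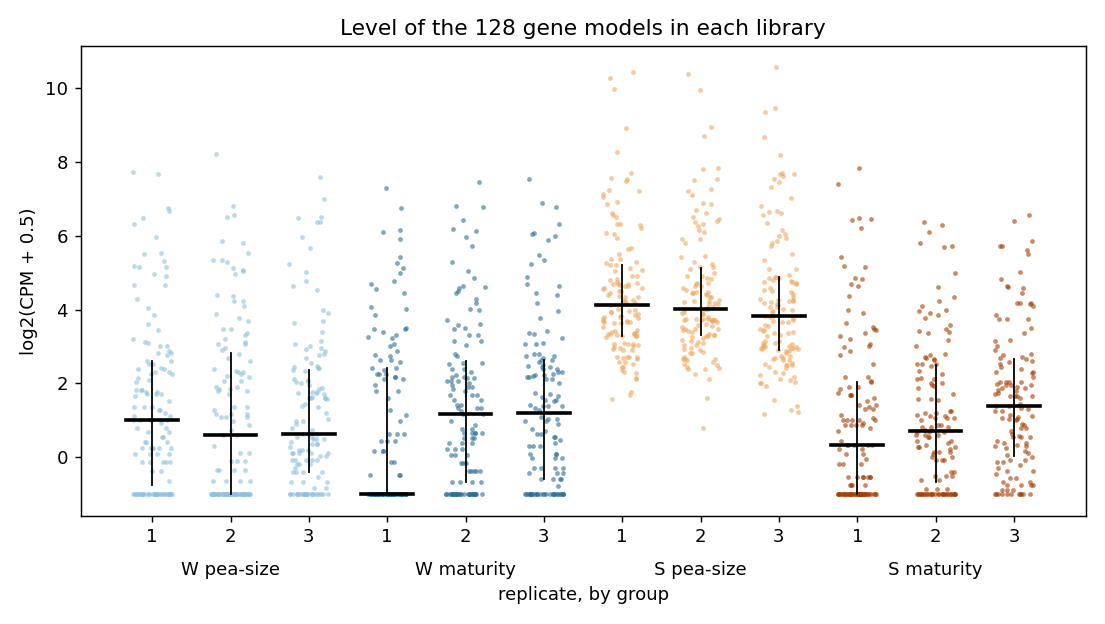
Level of each of the 128 gene models, as log2(CPM + 0.5), in the 12 libraries, with the median as a thick bar and a thin line from the lower to the upper quartile. In S pea-size the library medians are 13.6 to 17.0 CPM and no gene model is at 0, which the selection requires. The row of points at the bottom of the other groups holds the gene models without a read.

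In the 3 S pea-size libraries all members had reads, as the selection required, from 12 to 21122 counts. The number at 0 counts was 32, 49 and 24 in the W pea-size libraries, 66, 30 and 29 in the W maturity libraries, and 42, 29 and 11 in the S maturity libraries. The 66 were in W maturity replicate 1, the library with the fewest counts, where the median member had 0 CPM and 51.6% of the members were at 0 against 18.7% of all gene models tested. The number at 0 did not follow the gene counts throughout: S maturity replicate 1 had 10538143 gene counts and 42 members at 0. W maturity replicate 2 had 7392548 gene counts and 30 at 0. The part of library depth in these numbers was not tested.

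The gene model with the highest S pea-size level, evm.model.chr5.917 on chromosome 5, lost its place among the 128 without S maturity replicate 1. Its S pea-size libraries had 1385, 1317 and 1501 CPM and its S maturity libraries 229, 78.2 and 52.3 CPM. In W it had 204, 298 and 126 CPM at the pea-size stage and 108, 174 and 184 CPM at maturity. The S pea-size libraries were above all others, and the remaining groups overlapped. The means were 1401 ± 93.1 CPM in S pea-size, 120 ± 95.3 in S maturity, 209 ± 85.8 in W pea-size and 155 ± 41.5 in W maturity (SD, n = 3 each).

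In edgeR's quasi-likelihood test with Benjamini-Hochberg adjustment, evm.model.chr5.917 had a log2FC in S of -3.30 (SE 0.67, adjusted p = 0.0271). The call was lost when any 1 S pea-size replicate was left out (adjusted p = 0.101, 0.106 and 0.116) and when S maturity replicate 2 was (adjusted p = 0.0904). By the same test it was kept without S maturity replicate 1 (log2FC -4.35, adjusted p = 2.64e-08) and without S maturity replicate 3 (log2FC -2.89, adjusted p = 0.0448). In W its log2FC was -0.48 with a 95% interval from -1.14 to 0.18. The ratio of S to W at maturity was 0.773, and 0.423 without S maturity replicate 1, which is outside the window. Pooled over the 3 libraries of each stage, its S counts gave a pea-size to maturity ratio of CPM of 14.4, with a 95% interval from 14.0 to 14.9 that covers counting error only. These p-values, and all that follow, measure the spread between these replicates, and since the selection used the same contrasts they describe the members and test nothing about them.

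The second and the third gene model by level, on chromosomes 19 and 8, kept their place with each of the 12 libraries left out in turn. The one on chromosome 19 had 1236, 988 and 696 CPM in S pea-size and 85.0, 51.5 and 44.7 CPM in S maturity. In W it had 87.8, 57.0 and 24.3 CPM at the pea-size stage and 59.5, 52.6 and 66.3 CPM at maturity. Its level in S pea-size was thus the highest in all 3 replicates, and the other 9 libraries lay between 24.3 and 87.8 CPM.

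The gene model on chromosome 8 had the steadiest low level of the 3. It had 990, 415 and 651 CPM in S pea-size and 73.8, 81.9 and 83.7 CPM in S maturity. In W it had 79.4, 94.5 and 82.5 CPM at the pea-size stage and 67.6, 111 and 110 CPM at maturity. Its 95% interval for the W change ran from -0.46 to 0.73 on the log2 scale, and that for S against W at maturity from -0.96 to 0.37, so both lay within -1 to 1.

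**Figure D3:**
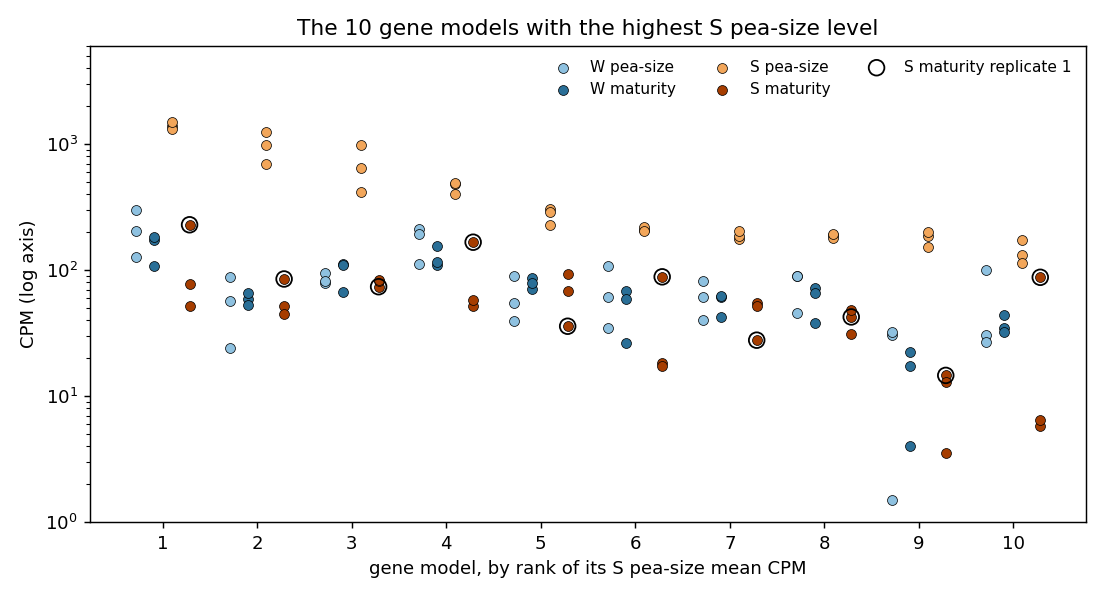
CPM of the 10 gene models with the highest S pea-size level in each of the 12 libraries, on a log axis, in order of that level. Orange points (S pea-size) are on top throughout, and the ringed points (S maturity replicate 1) stand well above the other S maturity points for the gene models ranked 1, 4, 6 and 10, at 229, 166, 88.4 and 87.7 CPM.

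Among the other gene models of the first 10, the S maturity level of those ranked 4, 6 and 10 was set by S maturity replicate 1, as it was for the first. The one ranked 10, on chromosome 19, had 132, 115 and 175 CPM in S pea-size. In S maturity it had 87.7 CPM in replicate 1 and 5.75 and 6.42 CPM in replicates 2 and 3. Without replicate 1 its ratio of S to W at maturity was 0.176 in place of 0.902. The gene models ranked 4 and 6, on chromosomes 12 and 1, went from ratios of 0.724 and 0.810 to 0.433 and 0.356.

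The gene models ranked 5 and 7, on chromosomes 5 and 18, differed from these in that replicate 1 was the lowest of their S maturity libraries. The one ranked 5 had 308, 228 and 287 CPM in S pea-size and 35.9, 68.6 and 93.9 CPM in S maturity, beside 39.5 to 90.4 CPM in the 6 W libraries. The one ranked 7 had 177, 186 and 203 CPM in S pea-size and 27.8, 55.2 and 52.1 CPM in S maturity, beside 40.3 to 81.9 CPM in W. Without replicate 1 their maturity to pea-size ratios in S rose to 0.298 and 0.286, above 0.25.

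For the gene models ranked 8 and 9, on chromosomes 14 and 13, S maturity replicate 1 lay close to at least 1 of the other replicates. The one ranked 8 had 189, 181 and 194 CPM in S pea-size and 42.5, 31.1 and 48.2 CPM in S maturity, and it kept its place without replicate 1. The one ranked 9 had 186, 154 and 201 CPM in S pea-size and 14.6, 3.56 and 13.0 CPM in S maturity. Its W pea-size libraries had 30.7, 32.2 and 1.49 CPM, so the flat W mean covered a wide spread between replicates. Of the first 10, only those ranked 2, 3 and 8 stayed without S maturity replicate 1.

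Over all 128 members that library was not mostly the highest of its group. It lay above both other S maturity libraries in 30 members (23.4%, against 27.3% of the gene models tested) and below both in 63 (49.2%, against 57.6%). It was more than 2 times both others in 14 members and less than 0.5 times both in 24, with 0.5 CPM added. Selection without it gave 98 gene models, of which 73 were among the 128.

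A set of 13 members had no read in any of the 6 W libraries, and 6 of them had none in the 9 libraries outside S pea-size. The highest of the 13, ranked 23 on chromosome 18, had 73.0, 67.3 and 65.5 CPM in S pea-size. It had 0 counts in S maturity replicates 1 and 2 and 1 count in replicate 3. Against the limit of 3 counts over the W pea-size group it was at least 671-fold higher in S at the pea-size stage, a bound that covers counting error only.

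The gene model next to it in the order of chromosome 18, ranked 54, followed the same pattern. It had 22.3, 18.0 and 16.1 CPM in S pea-size and 0 counts in all 9 other libraries. It was at least 184-fold higher in S than in W at the pea-size stage, and at least 326-fold higher in S at the pea-size stage than at maturity. For the other 11 of the 13 the bound over W ran from 50.2-fold to 167-fold. Reads of both genotypes were mapped to the genome of the cultivar Noble and uniquely mapped reads were counted, so reads from near-identical copies would be missing, and 0 counts do not show that a gene is absent or silent.

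Of the 14 members that stayed with each library left out in turn, 8 were at 0 in all W libraries and 9 had means below 0.5 CPM in all groups but S pea-size. For these 9 the added 0.5 CPM held both window ratios near 1 whichever library was left out. That they stayed within the windows was thus largely built in and is no sign of a steady level. The other 5 were the second, the third and those ranked 16, 30 and 46, on chromosomes 8, 3 and 8. The one ranked 16 averaged 98.5 CPM in S pea-size, 16.9 in S maturity, 23.6 in W pea-size and 19.2 in W maturity. At S maturity 6 of the 14 had 0 counts, with lower bounds of 97.3-fold to 326-fold for pea-size over maturity, and 3 had 1 to 3 counts. Of the 14, 5 were on chromosome 8 and 4 on chromosome 18.

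The second gene model named by the rule, evm.model.chr7.656 on chromosome 7, ranked 96, had the lowest fitted log2FC in S among members with at least 50 counts on average in S and more than 3 counts at maturity. It had 208, 42 and 75 counts in S pea-size and 0, 0 and 5 counts in S maturity. In W it had 0, 0 and 7 counts at the pea-size stage and 0, 1 and 4 counts at maturity. Its reads were few in 9 libraries, and its S pea-size libraries, at 16.8, 4.29 and 5.33 CPM, differed widely. The log2FC in S was -6.48 (SE 1.31, adjusted p = 0.0261, edgeR's quasi-likelihood test). The call was lost without S pea-size replicate 1, 2 or 3 (adjusted p = 0.139, 0.0739 and 0.0922), without the second replicate of S maturity (adjusted p = 0.0663) and with the replicate number as a block (adjusted p = 0.0599). By the same test it was kept without S maturity replicate 1 (log2FC -6.12, adjusted p = 0.000532) and without S maturity replicate 3 (log2FC -9.78, adjusted p = 0.0312). The pooled counts gave a ratio of CPM of 93.5 with a counting interval from 39.7 to 290, and without S maturity replicate 3 all counts at maturity were 0.

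Across all members, edgeR called 76 of 128 down in S where the adjusted p did not exceed 0.05 and the log2FC was -1 or lower, beside 5.03% of the 18439 gene models tested. All 128 members passed the filter on low counts, but enough reads in 1 group of 3 libraries suffice for it. The S pea-size level that the selection required could thus carry a member through, and 29 had at least 10 counts in every library. Here and in the contrasts below, all gene models tested were not matched to the members for level. DESeq2's Wald test called 123, beside 9.13% of all tested. The median log2FC in S was -3.13 over the members, also with the 8 at 0 at their bounds, and 0.07 over all gene models tested. The call followed the level: 21 of the 24 members with 50 CPM or more in S pea-size were called, 40 of the 62 with 10 to 50 CPM and 15 of the 42 with 5 to 10 CPM. The count was 22 to 24 with any 1 of the S pea-size replicates left out, 43 without S maturity replicate 2 and 128 without S maturity replicate 1. No share of all gene models is given for the bands of level or for any fit with a library left out, here or below. These counts therefore do not show whether the members moved apart from all gene models.

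In W, 0 of the 128 were called by edgeR, beside 0.938% of all tested, and 0 by DESeq2, beside 2.26%. At an unadjusted p under 0.05 both tools also gave 0 members, beside 9.4% and 10.6% of all tested. The selection asked for this, and the fits do not show that the members stayed the same in W. The 13 members with no read in any W library had no interval and could not be called, and DESeq2 tested the 115 others. Of the 115 members with a fitted interval, 5 had a 95% interval for the W log2FC within -1 to 1 and 110 reached beyond it. The median SE of the W log2FC was 1.59 over the members and 0.62 over all gene models tested.

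At maturity the selection asked for similar levels in S and W, so the counts of calls there describe the selection. The edgeR test called 0 of 128 between the genotypes, beside 6.59% of all tested, and DESeq2 0, beside 13.4%. At an unadjusted p under 0.05 edgeR gave 0 members, beside 23.6% of all tested, and DESeq2 0, beside 26.7%. The 95% interval of the genotype difference lay within -1 to 1 on the log2 scale in 6 members and reached beyond it in 115. The other 7, with 0 counts in both groups at maturity, had no interval and could not be called. Without S maturity replicate 1, edgeR called 5 of the 128.

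At the pea-size stage edgeR called 39 of 128 higher in S, beside 2.67% of all tested, and DESeq2 77, beside 6.63%. The median log2FC of S over W was 2.94 in the members, also with the 16 at 0 in W pea-size at their bounds, and 0.02 over all tested. The count of 39 was 11, 17 and 16 without S pea-size replicates 1, 2 and 3, and 20, 22 and 19 without W pea-size replicates 1, 2 and 3. It was 60 without S maturity replicate 1, a library of neither group compared but part of the fit over all libraries. How it moved the count was not tested. Both the fall in S and the pea-size difference were called in 36 members, and neither of these nor the interaction in 49. For these overlaps too, no share of all gene models is given.

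The stage by genotype interaction compares the change in S with the change in W, and edgeR called it in 6 of 128 members, beside 1.29% of all tested. DESeq2 called 28, beside 2.96%. In the edgeR fit the 13 members with no read in W had an interaction SE of 8210 to 22866, so they could not be called. The same held for the one ranked 59, with no read at maturity in either genotype (SE 12006). The 6 were those ranked 2, 3, 5, 7, 11 and 25, and all 6 were also called for the fall in S and the pea-size difference. The largest difference among the 6 was that of the one ranked 25, on chromosome 1, with an interaction log2FC of -4.23 (SE 0.99, adjusted p = 0.0393). It had 66.3, 38.2 and 39.9 CPM in S pea-size and 1.61, 3.97 and 6.10 CPM in S maturity, beside 0.638 to 9.82 CPM in W.

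The gene model ranked 11, on chromosome 2, had an interaction log2FC of -2.25 (SE 0.42, adjusted p = 0.0136). It had 116, 118 and 185 CPM in S pea-size and 20.0, 23.9 and 31.5 CPM in S maturity, beside 24.9 to 50.1 CPM in W. The interaction log2FC was -3.89 for the second gene model and -3.14 for the third, with SE of 0.65 and 0.45 and adjusted p of 0.00858 and 0.00379. The interaction count was 3 with S pea-size replicate 1, S pea-size replicate 3 or W maturity replicate 2 left out, and 25 without S maturity replicate 1.

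**Figure D4:**
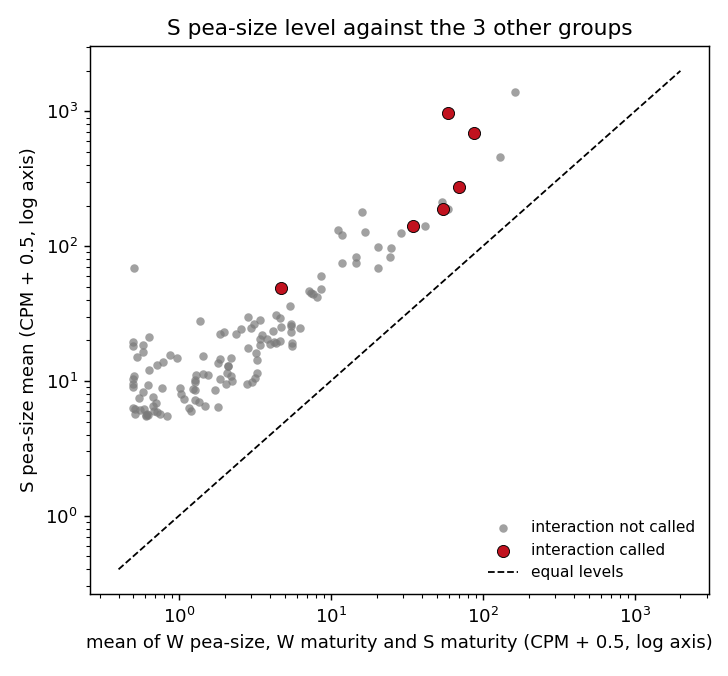
Mean CPM in S pea-size against the mean over W pea-size, W maturity and S maturity, both with 0.5 CPM added and on log axes, with 1 point for each of the 128 gene models and a dashed line at equal levels. Every point lies above the line, as the selection requires, and the 6 gene models with a called interaction (red) are among those with a level well above 0 in the low groups.

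In terms of ranges, 125 of the 128 members had all 9 other libraries below all 3 S pea-size libraries, beside 6.99% of all gene models. The 3 exceptions, ranked 61, 95 and 113, each had W pea-size replicate 1 above the lowest S pea-size library. The genotypes did not overlap at the pea-size stage in 125 members, beside 25.1% of all gene models. At maturity they did not overlap in 1 member, beside 18.6%, and the W stages did not overlap in 1, beside 10.6%. The S stages were required not to overlap, beside 16.0% of all gene models. The selection also implies an S pea-size mean above those of the other groups, and it asked for similar levels at maturity and in W. All these counts therefore largely follow from the selection and are descriptions.

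Each library was also set against gene models chosen without it, since its level had then played no part in the choice. With 1 S pea-size library left out, 117, 123 and 130 gene models were chosen, and in the library left out 82.9%, 81.3% and 77.7% of them had a maturity to pea-size ratio of at most 0.25. Of all gene models with at least 5 CPM in S pea-size, 7.29%, 7.37% and 6.63% did. With 1 S maturity library left out, 98, 118 and 145 were chosen, and 79.6%, 89.0% and 65.5% of them met that ratio in it, against 13.4%, 11.7% and 9.89%. The fall in S was thus met again in most of the gene models by each library that had not chosen them. The libraries of the other stage were shared between choice and comparison, so the gap to all gene models is partly built in.

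The flat level was met again far less. In the S maturity library left out, 37.8%, 53.4% and 42.1% of the gene models lay within 2/3 to 1.5 of the W maturity mean, against 48.1%, 43.1% and 40.8% of all gene models with at least 5 CPM in S pea-size. In the W pea-size library left out, 47.4%, 43.7% and 53.0% lay within that window of the W maturity mean, against 56.0%, 52.7% and 62.7%. For the W maturity libraries the shares were 38.0%, 53.2% and 58.1% against 49.1%, 63.4% and 63.3%. For 8 of the 9 libraries the share was within 2 percentage points of that of all gene models or below it. The gene models they were set against were not matched for level.

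**Figure D5:**
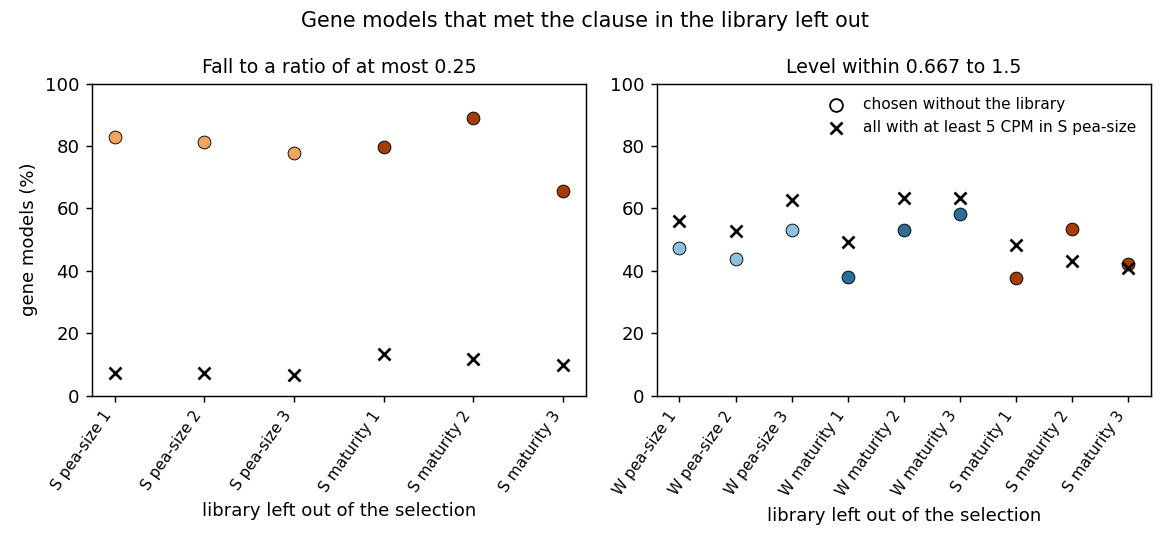
Share of gene models that met the ratio of at most 0.25 in S (left) or the window of 2/3 to 1.5 (right) in a library that was left out when they were chosen. Circles are the gene models so chosen and crosses all gene models with at least 5 CPM in S pea-size: on the left the circles lie at 65.5% to 89.0% and the crosses at 6.63% to 13.4%, and on the right both lie between 37.8% and 63.4%.

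The spread between replicates could be compared in the 27 members with every group mean at 5 CPM or more. Their median ratio of the highest to the lowest replicate was 1.33 in S pea-size, against 1.36 in the 10941 gene models with the same minimum. In W pea-size it was 2.55 against 1.81, in W maturity 1.97 against 1.59 and in S maturity 2.17 against 1.96. In W maturity, replicate 1 was the lowest in 19 of the 27, with no share of the 10941 given beside it. The members and the 10941 were not matched for level beyond the minimum. The selection used the same libraries, so these spreads are descriptions.

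The selection used no position, and the members were found on all 20 chromosomes. Chromosome 8 held 17 of them, 13.3% of the members against 5.90% of all gene models, or 10.9 members per 1000 gene models. Chromosome 4 held 14 (10.9% against 5.80%), chromosome 18 held 12 (9.38% against 7.98%), chromosome 1 held 11 (8.59% against 5.56%) and chromosome 20 held 7 (5.47% against 3.23%). Chromosome 15 held the fewest, with 2. These shares are descriptions, and no test of them was made.

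In 4 cases a pair of members lay next to each other in the order of the gene models. Besides the pair on chromosome 18, one pair on chromosome 1 joined the gene models ranked 6 and 25, with folds of pea-size over maturity in S, with 0.5 CPM added, of 5.04 and 11.1. A pair on chromosome 14 joined those ranked 13 and 35, with folds of 10.2 and 9.39. A pair on chromosome 8 joined those ranked 99 and 122, with folds of 9.29 and 10.4 and less than 0.5 CPM in each group but S pea-size. Within 10 steps, 19 members had another member near them. No value for sets of other gene models is given beside these numbers, so they do not show that the members lay closer together.

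Set among all falls in S, the members were a minority. By the same levels 991 gene models came down in S, and 410 of them had a W ratio between 2/3 and 1.5. Of the 410, the 128 members were 31.2%, while S ended below 2/3 of the W level in 219 and above 1.5 times it in 63. The 219 had medians of 50.7 CPM in S pea-size and 25.9 CPM in W pea-size, so they began nearer to each other than the members did, and 64 of the 410 had a shared pea-size level. These groups share all libraries and are divided by their levels, so no test was made between them.

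Several members lay close to a limit of the selection. The S ratio of the nearest member was 0.248 and that of the nearest gene model outside 0.251. The S pea-size mean was 5.02 CPM just inside and 4.77 CPM just outside. The W ratio ran from 0.670 to 1.49 inside, with 0.652 and 1.504 just outside, and the ratio at maturity from 0.6671 to 1.4998 inside, with 0.6643 and 1.516 just outside.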

How the data were processed

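Pedicel RNA of W and S was measured in 12 libraries, 3 per genotype and stage. The authors used a directional kit, trimmed with Cutadapt and mapped to the Noble genome with STAR. The deposited files hold raw counts per gene model, made with HTSeq, SAMtools and scripts of the sequencing centre. Per the study's methods, reads with more than 1 mapping place and suspected PCR copies are not in them. Each file has 26394 gene models and 5 summary entries, which were left out of library totals and tests and made up 15.2% to 34.7% of all entries of a library. Gene counts per library ranged from 4705119 to 21971736.

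Counts were analysed in R 4.3.3 with edgeR 4.0.16 and DESeq2 1.42.0, and in Python 3.11.15 with pandas 2.3.3 and matplotlib 3.10.9. The 18439 gene models that passed filterByExpr (minimum count 10, minimum total 15) were scaled by TMM and tested with the robust quasi-likelihood F test with Benjamini-Hochberg adjustment over all of them. Stage was tested in the 6 libraries of each genotype, and genotype and the interaction in all 12 libraries with 1 mean per group. A call needed an adjusted p no higher than 0.05 and a log2FC of 1 or more, up or down as stated. The scripts were tested on simulated data. Intervals are at 95%, and the limit for 0 counts is 3 counts over a group.

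Libraries with the same replicate number did not deviate together (correlations from -0.067 to 0.0208). These correlations gave no sign of pairing by number, but they cannot show whether same-numbered samples shared a plant or a preparation. The members, lists and tests were chosen with earlier results of these data known. The rule for naming took the member with the highest S pea-size mean CPM and the member with the lowest fitted log2FC in S among those that averaged 50 or more counts in the S libraries and had more than 3 counts at S maturity, and gave levels for the first 10 by rank. Other gene models described singly were chosen after their values were seen. The alternatives were another tool, scaling, filter, fold threshold, added CPM, level minimum or window, a replicate block, and each library left out. No gene names, sequences or coordinates were used here, since no identifier matched the reference table.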

Additional observations from a re-analysis of the deposited data

Results flagged for a closer look

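The stage change differed between the genotypes in 6 of the 128 gene models by edgeR's test of the interaction with Benjamini-Hochberg adjustment, those ranked 2, 3, 5, 7, 11 and 25 by S pea-size level. In each of them the change in S was lower than that in W. The choice of the members fixed this direction, so the count is a description, beside 1.29% of all gene models tested. The 13 members with no read in W could not be called.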

How the results depend on the processing

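The number of gene models chosen, 128, was 84 with 0.1 CPM added (79 of them among the 128), 204 with a minimum of 1 CPM, 50 with windows of 4/5 to 5/4, 306 with windows of 0.5 to 2, 107 with TMM scaling (103 shared), and 98 to 145 with 1 library left out (73 to 120 shared). The count called down in S, 76, was 123 with DESeq2, 23 of the 29 with at least 10 counts in every library, 43 with all 12 libraries in 1 fit, 44 with the replicate block, and 22 to 128 with 1 library left out. The count higher in S at the pea-size stage, 39, was 77 with DESeq2, 21 of those 29 with at least 10 counts, 19 with the replicate block, and 11 to 60 with 1 library left out. The interaction count, 6, was 28 with DESeq2 and 3 to 25 with 1 library left out, and the count between genotypes at maturity, 0, was 0 to 5. The count in W was 0 under all alternatives. Apart from DESeq2, no share of all gene models called is given beside the counts of calls under the alternatives. Of the pea-size libraries, 1 of 6 correlated best with its own replicate number. With 1 library left out, the log2FC in S was -4.35 to -2.89 for evm.model.chr5.917 and -9.78 to -5.67 for evm.model.chr7.656. Scaling by library totals moved the median log2FC of all gene models at the pea-size stage from 0.02 to 0.17 and that of the members from 2.94 to 3.12. The cause of these differences was not tested. Low counts limit what can be said of most members: 29 of 128 had at least 10 counts in every library. The parts of depth and level in this were not tested.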
